A study of Mus musculus with 16 samples.

Results

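Chemokines of the CXC family and fractalkine (Cx3cl1) were followed in cultured fibroblasts of mouse embryos (MEFs), with or without the gene for SIMPL and with or without TNFα. The 10 genes were taken by name from the array annotation: Cxcl1, Cxcl2, Cxcl5, Cxcl9, Cxcl10, Cxcl11, Cxcl12, Cxcl14, Cxcl16 and Cx3cl1. They are a part of the family, chosen with earlier results of these data known. Another 6 measured CXC ligands were left out of the 10 and are counted separately below. All 10 were measured, each by a single probe set, out of 19938 genes on Affymetrix Mouse Gene 1.0 ST arrays. Total RNA was hybridised to 16 arrays, 4 in each of 4 groups: SIMPL-/- MEFs treated with TNFα, untreated SIMPL-/- MEFs, littermate control MEFs treated with TNFα and untreated littermate control MEFs. SIMPL-/- cells are labelled Irak1bp1-/-, after the gene that encodes SIMPL, and littermate cells are labelled wild type. Both genotypes share the strain C57Bl/6 x 129Sv, and all cultures were proliferating. The agent was recombinant human TNFα at 10 ng/ml, given for 45 min according to the labels and for 1 h according to the methods. By the methods, MEFs came from a single embryo on 4 independent occasions for each genotype. No source ties an array to an embryo, so the p-values below measure the spread between these arrays. Values are log2 of the fluorescence, so that a difference of 1 is a 2-fold change. Apart from whether a gene lay above or under the median gene (7.06), levels of different genes were not set against each other. How precise the values are is limited by there being 4 arrays a group.

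The label check and the makeup of the cultures came first. Irak1bp1 had a log2 value of 5.37 ± 0.24 and 5.36 ± 0.19 in SIMPL-/- MEFs with and without TNFα, against 7.91 ± 0.18 and 8.09 ± 0.17 in littermate MEFs (SD, n = 4 each), and no SIMPL-/- array overlapped a littermate array. Where its probes lie relative to the deleted part is not given in the sources used here. All 10 fibroblast markers were above the median gene in all groups, with array means of 12.3 to 12.4 in SIMPL-/- and 12.8 to 12.9 in littermate MEFs. With and without TNFα, 7 of them were lower in SIMPL-/- MEFs and 2 higher, among them the matrix proteoglycan genes Lum (log2 difference −2.78 with and −2.87 without TNFα) and Dcn (−1.01 and −1.02) and the surface glycoprotein gene Thy1 (0.71 and 0.73). Of 5 epithelial markers, 2 were higher in SIMPL-/- MEFs with TNFα and 4 without it. The keratin genes Krt18 (2.08 and 2.13) and Krt8 (1.59 and 1.64) had the largest differences. With TNFα, Epcam (0.0068), Cdh1 (0.041) and Cldn4 (−0.062) did not pass. Without it, Cdh1 (0.27) and Cldn4 (0.24) were higher and Epcam (0.092) did not pass. Over all genes, 17.8% were higher and 18.4% lower in SIMPL-/- MEFs with TNFα, and 23.3% and 17.6% without it. The mean of the 5 epithelial markers per array ran from 7.36 to 7.44 in SIMPL-/- MEFs and from 6.43 to 6.76 in littermate MEFs. Of these markers, 3 were under the median gene in all groups. Lum, Dcn, Thy1, Krt18 and Krt8 were chosen for mention after their values were seen. All 25 measured myeloid markers were lower in SIMPL-/- MEFs, with and without TNFα. Their mean per array ran from 7.39 to 7.52 in SIMPL-/- MEFs and from 9.40 to 9.94 in littermate MEFs, and 10 to 11 of the 25 were under the median gene in SIMPL-/- groups, against 1 in littermate groups. In whole cultures, fewer cells of a type and less RNA per cell cannot be told apart.

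Chemokines are small secreted proteins that draw cells along a gradient by binding receptors coupled to G proteins. CXC chemokines carry a single residue between the first cysteines. Those with the residues glutamate, leucine and arginine before them, among them Cxcl1, Cxcl2 and Cxcl5, bind Cxcr2 and draw neutrophils. Cxcl9, Cxcl10 and Cxcl11 bind Cxcr3 on activated T cells and natural killer cells and are classical targets of interferons. Cxcl12, the ligand of Cxcr4, is made constitutively by stromal cells and holds blood stem cells and B cell precursors in the bone marrow. Cxcl16 and Cx3cl1 differ from the rest in being made as transmembrane proteins that also act as adhesion molecules, until proteases such as Adam10 and Adam17 release them. TNFα switches on many chemokine genes in fibroblasts through NF-κB dimers that bind their promoters.

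The promoters of members that responded together are shown to give the sequence context of these responses. Of the 10 genes, 7 had an entry in the RefSeq promoter table used here (Cxcl5, Cxcl11 and Cxcl16 had none). The 250 bases before each gene start, in build GRCm38.p6, were searched on both strands for the NF-κB consensus, for the core of the interferon-stimulated response element (ISRE), TTTC followed by any 2 bases and TTTC, and for TATAAA. Over all 32851 promoters of the table, windows of this length held an NF-κB match in 3.9%, an ISRE core in 2.98% and TATAAA in 12.4%. The 5 responding genes in the table and Cxcl12, which TNFα did not raise, are printed 5′ to 3′ on the gene's strand, with every match in capitals and no match overlapping another motif.
Cxcl1, chr5:90890995-90891244, plus strand: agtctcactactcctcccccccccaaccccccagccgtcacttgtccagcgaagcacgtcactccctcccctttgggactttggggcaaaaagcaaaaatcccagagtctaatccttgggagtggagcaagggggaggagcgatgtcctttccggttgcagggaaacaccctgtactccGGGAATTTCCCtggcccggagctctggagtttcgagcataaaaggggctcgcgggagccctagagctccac
Cxcl2, chr5:90903649-90903898, plus strand: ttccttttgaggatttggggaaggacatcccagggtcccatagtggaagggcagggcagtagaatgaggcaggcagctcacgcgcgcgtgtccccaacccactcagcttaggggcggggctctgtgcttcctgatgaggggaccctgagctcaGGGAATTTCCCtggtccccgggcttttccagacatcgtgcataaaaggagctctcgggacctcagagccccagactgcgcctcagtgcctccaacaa
Cxcl9, chr5:92328080-92328329, minus strand: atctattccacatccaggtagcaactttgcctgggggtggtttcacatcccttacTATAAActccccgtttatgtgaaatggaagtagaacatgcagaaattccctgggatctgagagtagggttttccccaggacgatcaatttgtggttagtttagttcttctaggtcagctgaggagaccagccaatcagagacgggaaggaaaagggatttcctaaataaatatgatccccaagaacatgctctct
Cxcl10, chr5:92348890-92349139, minus strand: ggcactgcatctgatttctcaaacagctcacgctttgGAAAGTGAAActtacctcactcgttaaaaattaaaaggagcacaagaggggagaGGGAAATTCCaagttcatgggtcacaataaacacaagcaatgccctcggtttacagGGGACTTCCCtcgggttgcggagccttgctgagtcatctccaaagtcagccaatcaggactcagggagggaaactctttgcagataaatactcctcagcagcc
Cx3cl1, chr8:94771930-94772179, plus strand: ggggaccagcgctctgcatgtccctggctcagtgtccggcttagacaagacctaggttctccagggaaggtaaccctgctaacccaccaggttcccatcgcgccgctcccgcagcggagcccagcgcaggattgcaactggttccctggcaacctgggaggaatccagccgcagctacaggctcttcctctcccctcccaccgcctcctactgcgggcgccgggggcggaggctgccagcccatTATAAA
Cxcl12, chr6:117168285-117168534, plus strand: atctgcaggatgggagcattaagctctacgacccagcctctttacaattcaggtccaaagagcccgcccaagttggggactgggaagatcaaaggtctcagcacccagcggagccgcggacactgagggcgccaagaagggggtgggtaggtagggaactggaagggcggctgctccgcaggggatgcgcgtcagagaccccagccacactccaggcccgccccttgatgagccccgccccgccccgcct
Cxcl1 and Cxcl2 each held a run of 11 bases, 71 to 61 and 97 to 87 bases before the start, in which a match of 10 bases on each strand overlaps the other. Cxcl10 held 2 matches of 10 bases, at 159 to 150 and 103 to 94 bases, and an ISRE core on the opposite strand at 213 to 204 bases. The capitals in Cxcl9, 195 to 190 bases before the start, and in Cx3cl1, in the last 6 bases, are TATAAA. Cxcl12 had no match, and Cxcl14 (chr13:56296552-56296801, minus strand) had an ISRE core at 172 to 163 bases. A match is a run of letters and not a measured site, and a window without a match says nothing about binding elsewhere.

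**Figure D1:**
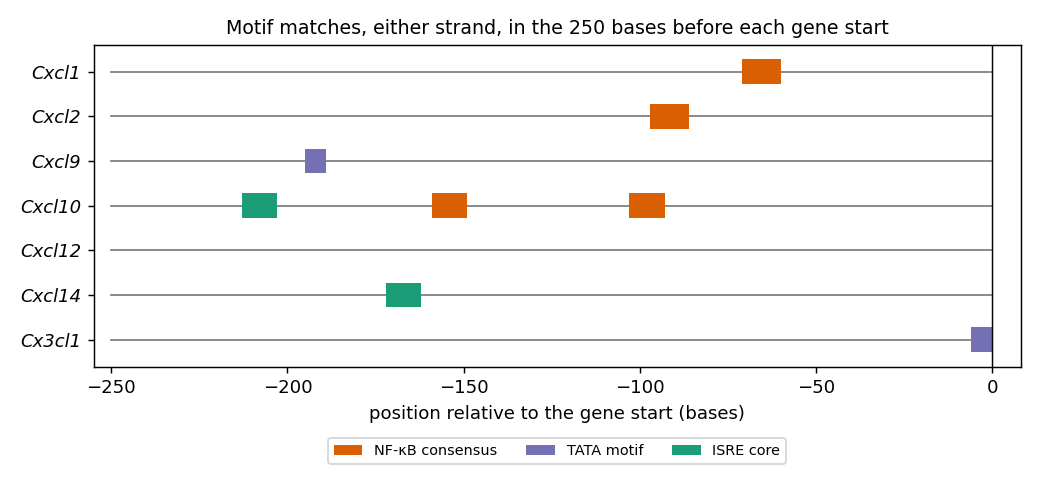
Positions of motif matches on either strand in the 250 bases before the start of the 7 genes with a promoter entry. The horizontal axis gives bases relative to the start, boxes mark NF-κB consensus, ISRE core and TATAAA matches, and only Cxcl1, Cxcl2 and Cxcl10 among the 7 hold the NF-κB consensus in this window.

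TNFα raised 7 of the 10 genes in SIMPL-/- MEFs and the same 7 in littermate MEFs: Cxcl1, Cxcl2, Cxcl5, Cxcl9, Cxcl10, Cxcl16 and Cx3cl1. None fell. A gene was said to rise or fall at a Benjamini-Hochberg adjusted p under 0.05 over all 19938 genes from limma (two-sided). Over all genes, 1.73% rose and 1.39% fell in SIMPL-/- MEFs, and 2.7% rose and 2.45% fell in littermate MEFs. With each array centred on its median, 401 genes rose and 152 fell in SIMPL-/- MEFs, against 345 and 278 as deposited. The median log2 response of the 10 genes was 0.86 in SIMPL-/- MEFs and 1.11 in littermate MEFs, beside −0.023 and 0.0093 over all genes. For each of the 7 genes, in either genotype, all 4 treated arrays were above all 4 untreated arrays, which held for 3.87% of all genes in SIMPL-/- MEFs and 5.29% in littermate MEFs.

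**Figure D2:**
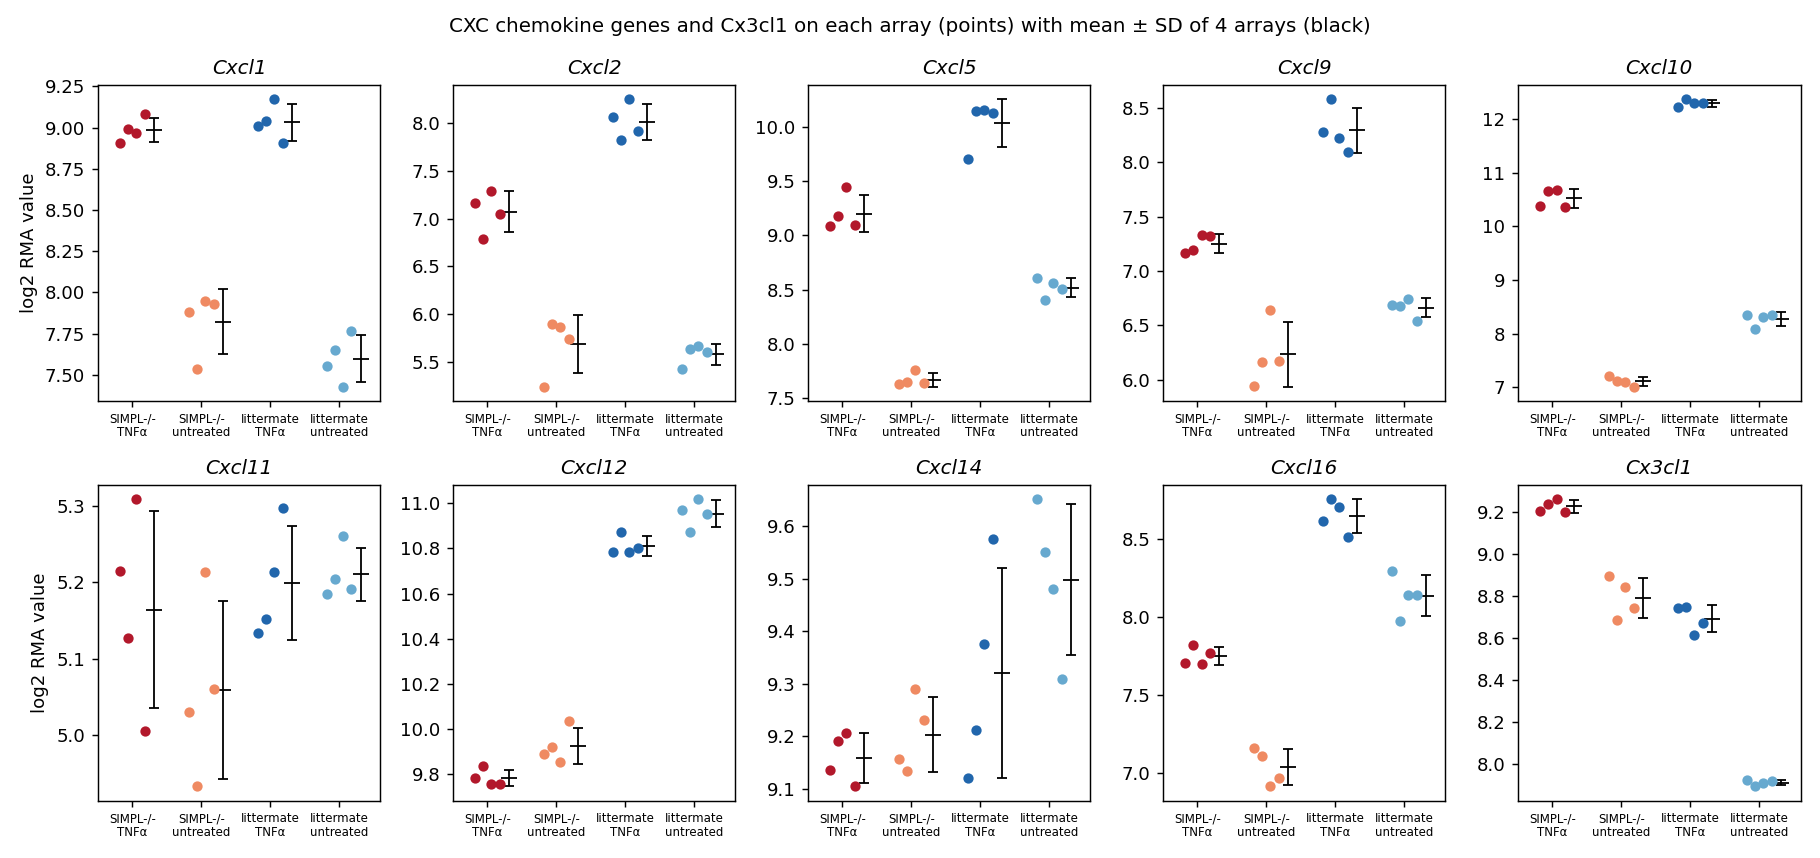
Log2 value (vertical axes, each with its own range) of the 10 genes on each array (points), by genotype and treatment, with the mean ± SD of 4 arrays in black. For Cxcl10 the 4 groups stand fully apart, from 7.01 to 7.21 in untreated SIMPL-/- MEFs up to 12.22 to 12.37 in TNFα treated littermate MEFs, whereas for Cxcl11 all groups lie between 4.93 and 5.31.

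Among the neutrophil-attracting chemokines, Cxcl1 rose in both genotypes and showed no detectable difference between them with TNFα. It read 8.91, 8.99, 8.97 and 9.08 on the treated SIMPL-/- arrays, against 7.88, 7.53, 7.95 and 7.93 on the untreated ones. In littermate MEFs it read 9.01, 9.04, 9.17 and 8.90 with TNFα, against 7.55, 7.65, 7.43 and 7.76 without. The treated groups overlapped each other, and so did the untreated groups. Cxcl1 rose 2.24-fold in SIMPL-/- MEFs (log2 1.16, SE 0.09, adjusted p = 7.17e-08) and 2.70-fold in littermate MEFs (log2 1.43, SE 0.09, adjusted p = 1.84e-09). With TNFα the genotypes differed by −0.045 (95% interval −0.23 to 0.14, adjusted p = 0.744) and the sign turned when arrays were centred on their medians (0.027). Without TNFα the estimate was 0.22 higher in SIMPL-/- MEFs (adjusted p = 0.0523). Untreated SIMPL-/- array 10 stood apart at 7.53, and without it this difference was 0.32 (adjusted p = 0.00367).

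Cxcl2, a close relative of Cxcl1 whose gene is its neighbour on chromosome 5, responded in SIMPL-/- MEFs to a lesser extent. Its values were 7.17, 6.79, 7.29 and 7.05 on the treated SIMPL-/- arrays, against 5.24, 5.90, 5.86 and 5.74 on the untreated ones. On littermate arrays they were 8.07, 7.82, 8.25 and 7.92 with TNFα, against 5.42, 5.63, 5.67 and 5.61 without. The untreated groups overlapped and lay under the median gene in both genotypes (mean 5.69 in SIMPL-/- and 5.58 in littermate MEFs), so the folds below rest on a dim untreated level. Each treated SIMPL-/- array was below each treated littermate array. The rise was 2.61-fold in SIMPL-/- MEFs (log2 1.39, SE 0.13, adjusted p = 1.21e-06) and 5.39-fold in littermate MEFs (log2 2.43, SE 0.13, adjusted p = 1.90e-10). With TNFα, Cxcl2 was 1.91-fold lower in SIMPL-/- MEFs (log2 −0.94, adjusted p = 1.03e-05), whereas without it the genotypes differed by 0.11 (95% interval −0.17 to 0.38, adjusted p = 0.529). The study plots Cxcl2 among its examples of genes with a reduced response on these same arrays, so its smaller rise is not independent evidence.

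Cxcl5 rose by much the same amount in both genotypes, at different levels. Treated SIMPL-/- arrays read 9.09, 9.18, 9.45 and 9.09, against 7.63, 7.65, 7.76 and 7.64 on untreated ones. Treated littermate arrays read 9.71, 10.14, 10.16 and 10.13, against 8.60, 8.40, 8.56 and 8.50 on untreated ones. The 4 groups did not overlap, and treated littermate array 5 was the lowest of its group. The rises were 2.89-fold in SIMPL-/- MEFs (log2 1.53, SE 0.09, adjusted p = 3.15e-09) and 2.86-fold in littermate MEFs (log2 1.52, SE 0.09, adjusted p = 1.92e-09). They differed by 0.015 (95% interval −0.27 to 0.30, adjusted p = 0.974), and by −0.095 without array 5. Cxcl5 was 1.78-fold lower in SIMPL-/- MEFs with TNFα (log2 −0.83, adjusted p = 8.56e-07) and 1.80-fold lower without it (log2 −0.85, adjusted p = 8.06e-07). On chromosome 5 the genes Cxcl5, Ppbp, Pf4, Cxcl3, Cxcl15, Cxcl1 and Cxcl2 follow each other in that order, so the 3 responding neutrophil chemokines lie in a single row of CXC genes. How far the probes of such related genes share targets was not tested.

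Among the Cxcr3 ligands, Cxcl10 had the largest estimated response of the 10 genes in either genotype. Its values were 10.38, 10.67, 10.67 and 10.36 on the treated SIMPL-/- arrays, against 7.21, 7.11, 7.10 and 7.01 on the untreated ones. On littermate arrays they were 12.22, 12.37, 12.30 and 12.30 with TNFα, against 8.35, 8.08, 8.30 and 8.34 without. All 4 groups were separate, in the order treated littermate, treated SIMPL-/-, untreated littermate and untreated SIMPL-/-, as for Cxcl5. Cxcl10 rose 10.7-fold in SIMPL-/- MEFs (log2 3.41, SE 0.08, adjusted p = 5.15e-16) and 16.3-fold in littermate MEFs. It was 3.43-fold lower in SIMPL-/- MEFs with TNFα (log2 −1.78, SE 0.08, adjusted p = 2.46e-12) and 2.24-fold lower without it (log2 −1.16, SE 0.08, adjusted p = 1.04e-09).

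Cxcl9 also rose in both genotypes. It read 7.16, 7.19, 7.33 and 7.32 on the treated SIMPL-/- arrays, against 5.94, 6.17, 6.65 and 6.18 on the untreated ones. Littermate arrays read 8.27, 8.58, 8.22 and 8.09 with TNFα, against 6.69, 6.68, 6.74 and 6.54 without. Treated SIMPL-/- arrays were all below treated littermate arrays, while the untreated groups overlapped through SIMPL-/- array 11 at 6.65. Untreated Cxcl9 was also under the median gene in both genotypes. The rise was 2.02-fold in SIMPL-/- MEFs (log2 1.02, SE 0.12, adjusted p = 1.66e-05) and 3.09-fold in littermate MEFs (log2 1.63, SE 0.12, adjusted p = 1.40e-08). Cxcl9 was 2.06-fold lower in SIMPL-/- MEFs with TNFα (log2 −1.04, adjusted p = 7.19e-07). Without TNFα it was 1.35-fold lower (log2 −0.43, adjusted p = 0.00685), a call that the methods' t-test did not make (adjusted p = 0.0754).

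Cxcl11, the third ligand of Cxcr3, stayed under the median gene in all 4 groups and did not follow Cxcl9 and Cxcl10. Unlike those genes, it is not listed among the protein-coding genes of chromosome 5 in the RefSeq annotation used here. Whether these cells carry a working Cxcl11 gene was not tested. Its values were 5.22, 5.13, 5.31 and 5.01 on the treated SIMPL-/- arrays, against 5.03, 4.93, 5.21 and 5.06 on the untreated ones. On littermate arrays they were 5.13, 5.15, 5.21 and 5.30 with TNFα, against 5.19, 5.20, 5.26 and 5.19 without. The groups overlapped throughout. Its response was 0.10 in SIMPL-/- MEFs (95% interval −0.04 to 0.25, adjusted p = 0.513) and −0.012 in littermate MEFs (95% interval −0.16 to 0.13, adjusted p = 0.963), and at such a dim probe set a change could go unseen. Without TNFα the genotypes differed by −0.15 (adjusted p = 0.0883), which passed after quantile normalization (−0.26, adjusted p = 0.00299) and without untreated SIMPL-/- array 11 (−0.20, adjusted p = 0.031).

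The constitutive chemokines did not pass the test for TNFα in either genotype. Cxcl12 read 9.78, 9.83, 9.75 and 9.76 on the treated SIMPL-/- arrays, against 9.89, 9.92, 9.85 and 10.03 on the untreated ones. In littermate MEFs it read 10.78, 10.88, 10.79 and 10.80 with TNFα, against 10.97, 10.88, 11.02 and 10.95 without. Treated arrays were below untreated ones in either genotype by a narrow margin, an order that 5.41% of all genes showed in SIMPL-/- MEFs and 6.12% in littermate MEFs. The log2 difference was −0.14 in SIMPL-/- MEFs (95% interval −0.25 to −0.03, adjusted p = 0.187) and −0.14 in littermate MEFs (95% interval −0.25 to −0.03, adjusted p = 0.155). Between the genotypes the gap was far wider. Cxcl12 was 2.04-fold lower in SIMPL-/- MEFs with TNFα (log2 −1.03, SE 0.05, adjusted p = 1.70e-11) and 2.05-fold lower without it (log2 −1.03, SE 0.05, adjusted p = 1.90e-11).

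Cxcl14, a chemokine made constitutively in skin and other epithelia, differed little between the groups. Its values were 9.13, 9.19, 9.21 and 9.10 on the treated SIMPL-/- arrays, against 9.16, 9.13, 9.29 and 9.23 on the untreated ones. On littermate arrays they were 9.12, 9.21, 9.38 and 9.58 with TNFα, against 9.65, 9.55, 9.48 and 9.31 without. Littermate arrays were more spread than SIMPL-/- arrays, and the treated and untreated groups of each genotype overlapped. The response was −0.044 in SIMPL-/- MEFs (95% interval −0.22 to 0.14, adjusted p = 0.871) and −0.18 in littermate MEFs (95% interval −0.36 to 0.0028, adjusted p = 0.311). Without TNFα, Cxcl14 was 1.23-fold lower in SIMPL-/- MEFs (log2 −0.30, SE 0.09, adjusted p = 0.0104). With TNFα the difference of −0.16 did not pass (adjusted p = 0.158), but it did without treated littermate array 5 (−0.23, adjusted p = 0.0456).

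The transmembrane chemokines both rose with TNFα but moved in opposite directions with genotype. Cxcl16, the ligand of Cxcr6, read 7.71, 7.82, 7.70 and 7.77 on the treated SIMPL-/- arrays, against 7.16, 7.11, 6.91 and 6.97 on the untreated ones. Littermate arrays read 8.61, 8.76, 8.71 and 8.51 with TNFα, against 8.30, 7.97, 8.14 and 8.14 without. The groups did not overlap, and treated SIMPL-/- MEFs stayed under untreated littermate MEFs. Cxcl16 rose 1.64-fold in SIMPL-/- MEFs (log2 0.71, SE 0.07, adjusted p = 4.84e-06) and 1.42-fold in littermate MEFs (log2 0.51, SE 0.07, adjusted p = 0.000181). The genotypes differed 1.86-fold with TNFα (log2 −0.90, adjusted p = 1.19e-08) and 2.14-fold without it (log2 −1.10, adjusted p = 8.34e-10), with SIMPL-/- lower both times.

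Cx3cl1 was the single gene of the 10 that passed as higher in SIMPL-/- MEFs in the model of all arrays, while untreated Cxcl1 passed as well under 5 other settings and without array 4, 7, 8 or 10. It read 9.20, 9.24, 9.26 and 9.20 on the treated SIMPL-/- arrays, against 8.90, 8.69, 8.84 and 8.74 on the untreated ones. In littermate MEFs it read 8.74, 8.75, 8.62 and 8.67 with TNFα, against 7.92, 7.90, 7.91 and 7.92 without. Untreated SIMPL-/- arrays thus overlapped TNFα treated littermate arrays, and the other groups stood apart. The rise was 1.35-fold in SIMPL-/- MEFs (log2 0.44, SE 0.05, adjusted p = 4.05e-05) and 1.72-fold in littermate MEFs (log2 0.78, SE 0.05, adjusted p = 7.60e-09). Cx3cl1 was 1.45-fold higher in SIMPL-/- MEFs with TNFα (log2 0.53, SE 0.05, adjusted p = 1.81e-07) and 1.84-fold higher without it (log2 0.88, SE 0.05, adjusted p = 2.13e-10).

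Whether the response of each gene differed between the genotypes was asked by testing the difference between the responses itself. The cultures compared also differed in their cell type markers, as given above, and the part of those markers was not tested. Cxcl2, Cxcl10 and Cx3cl1 responded less in SIMPL-/- MEFs and none of the 10 genes responded more, while over all genes 0.441% had a smaller and 0.0953% a larger response. The difference (SIMPL-/- minus littermate) was −1.04 for Cxcl2 (SE 0.18, adjusted p = 0.01002), −0.61 for Cxcl10 (SE 0.11, adjusted p = 0.0127) and −0.35 for Cx3cl1 (SE 0.08, adjusted p = 0.0470). Cxcl2 and Cxcl10 passed without any single array (highest adjusted p = 0.0303 and 0.0369), but neither passed in the unmoderated model that stood in for the methods' t-test (adjusted p = 0.0743 and 0.0579). Cx3cl1 passed in that model, yet it missed the threshold with arrays centred on their medians (adjusted p = 0.0867) and without any 1 array other than array 7, 10 or 15 (adjusted p 0.0279 to 0.115 over the 16 fits). Its smaller rise went with a higher untreated level, 8.79 ± 0.095 in SIMPL-/- MEFs against 7.91 ± 0.013 in littermate MEFs (SD, n = 4 each).

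For the other 4 induced genes the difference between responses did not pass. Cxcl9 had the same estimate as Cxcl10, −0.61, with a wider error (SE 0.17, 95% interval −0.96 to −0.26, adjusted p = 0.122), and it passed with trend and robust variance moderation (adjusted p = 0.0482). Cxcl1 had −0.27 (95% interval −0.53 to −0.0037, adjusted p = 0.381). Cxcl16 had the opposite sign, 0.20 (95% interval −0.02 to 0.42, adjusted p = 0.437), and Cxcl5 lay near 0 as given above. Of the genes without a TNFα response, Cxcl12 had 0.0019 (95% interval −0.16 to 0.16), Cxcl14 0.13 and Cxcl11 0.12. The median difference was −0.13 over the 10 genes and −0.032 over all genes.

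**Figure D3:**
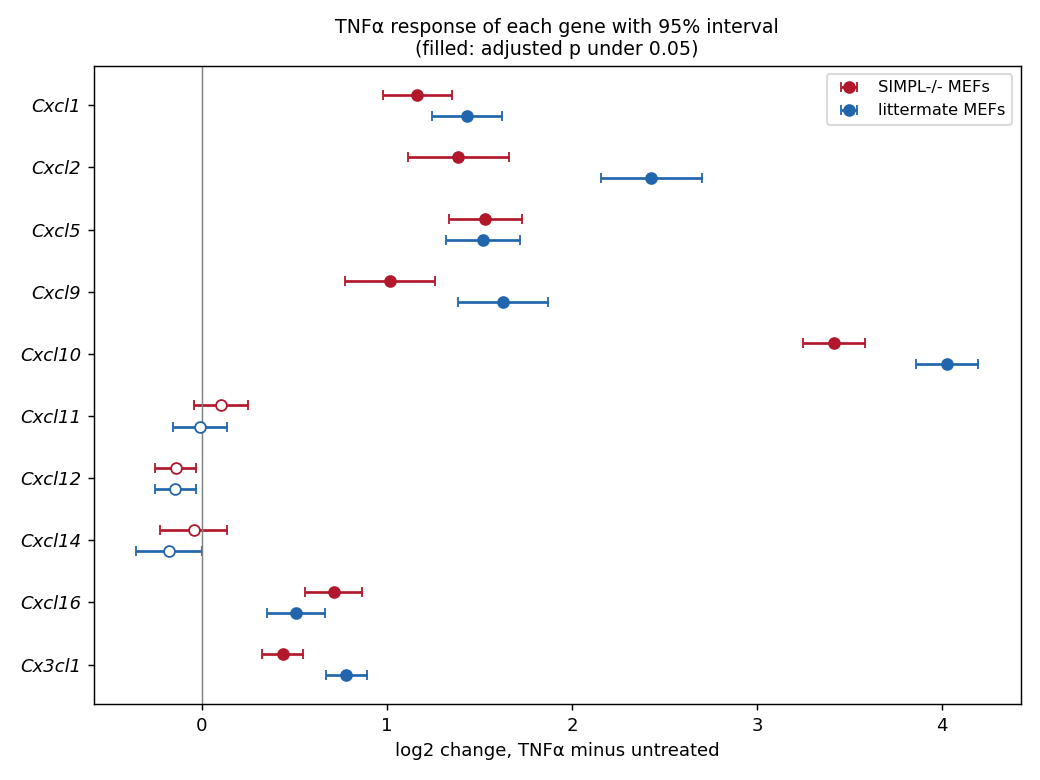
Log2 change with TNFα (horizontal axis, treated minus untreated) of the 10 genes in SIMPL-/- MEFs (red) and littermate MEFs (blue), with 95% intervals, filled where the adjusted p is under 0.05. The intervals of the genotypes stand clear of each other for Cxcl2, Cxcl10 and Cx3cl1, and for Cxcl9, whose difference did not pass. They nearly coincide for Cxcl5 and include or lie close to 0 for Cxcl11, Cxcl12 and Cxcl14.

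Levels differed between the genotypes for most of the 10 genes. With TNFα, Cxcl2, Cxcl5, Cxcl9, Cxcl10, Cxcl12 and Cxcl16 were lower in SIMPL-/- MEFs and Cx3cl1 was higher. Over all genes 18.4% were lower and 17.8% higher, so a difference between the genotypes was common on these arrays. Without TNFα, Cxcl5, Cxcl9, Cxcl10, Cxcl12, Cxcl14 and Cxcl16 were lower and Cx3cl1 was higher, beside 17.6% lower and 23.3% higher over all genes. With each array centred on its median, 5927 genes were higher and 2884 lower with TNFα (3557 and 3673 as deposited), and 6573 were higher and 3013 lower without it (4640 and 3511 as deposited). All 4 SIMPL-/- arrays were below all 4 littermate arrays for 6 of the 10 genes with TNFα and for 5 without it, which held for 17.2% and 17.5% of all genes. They were above them for Cx3cl1 alone in both conditions, beside 16.1% of all genes with TNFα and 22.1% without it. The median genotype difference of the 10 genes was −0.87 with TNFα and −0.36 without it, beside 0.031 and 0.075 over all genes. These contrasts use the same arrays as the TNFα responses. On the same arrays, 25 of 25 myeloid markers and 7 of 10 fibroblast markers were lower and 2 to 4 of 5 epithelial markers higher in SIMPL-/- MEFs, with the values given above, and the part of these cell type markers in the chemokine differences was not tested. TNFα raised 0 of the 25 myeloid markers in SIMPL-/- MEFs and 2 in littermate MEFs, beside 1.73% and 2.7% of all genes. Of the 25, 1 responded less in SIMPL-/- MEFs, beside 0.441% of all genes. It was Cd14, with a difference between responses of −0.61 (adjusted p = 0.00529). The study names Cd14 among its SIMPL-dependent genes from these same arrays, so its smaller response is not independent evidence.

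**Figure D4:**
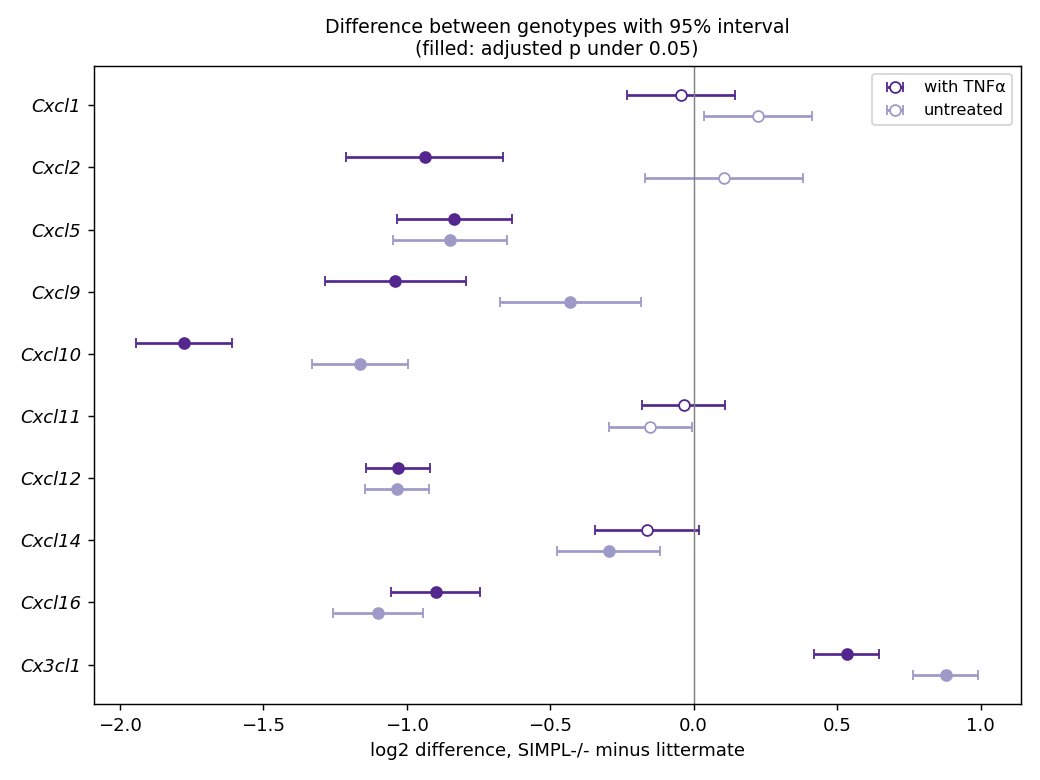
Log2 difference between genotypes (horizontal axis, SIMPL-/- minus littermate) of the 10 genes with TNFα (dark) and untreated (light), with 95% intervals, filled where the adjusted p is under 0.05. Cx3cl1 lies to the right of 0 in both conditions, Cxcl2 passes the test with TNFα and does not pass without it, and Cxcl12 differs by −1.03 in both.

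The other genes of the pathway were described from lists. Beside each count of responses below, 1.73% of all genes rose and 1.39% fell with TNFα in SIMPL-/- MEFs. In littermate MEFs 2.7% rose and 2.45% fell. Of 6 other CXC ligands, 5 of them under the median gene in all groups, 0 responded in SIMPL-/- MEFs and 1 in littermate MEFs. That gene was Cxcl3, another neutrophil chemokine of the chromosome 5 row, whose promoter also holds the NF-κB consensus, 73 to 63 bases before the start. Cxcl3 is itself one of the dim ligands, with group means from 5.54 to 6.22. It rose by 0.66 in littermate MEFs (adjusted p = 0.000462), against an estimate of 0.32 in SIMPL-/- MEFs (adjusted p = 0.129). The difference of −0.35 did not pass (adjusted p = 0.337). Without TNFα, Cxcl3 was 0.37 higher in SIMPL-/- MEFs (adjusted p = 0.0093), and with TNFα the genotypes differed by 0.022 (adjusted p = 0.90). Its SIMPL-/- response passed after quantile normalization, with array weights and without treated SIMPL-/- array 16 (0.43, adjusted p = 0.0135).

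Of 9 receptors of these chemokines, 0 responded to TNFα in SIMPL-/- MEFs and 1 in littermate MEFs. Counts this small do not set the genotypes apart. Cxcr4, the receptor of Cxcl12, read 7.30, 7.36, 7.44 and 7.50 on the treated SIMPL-/- arrays, against 7.45, 7.07, 7.37 and 7.19 on the untreated ones. Littermate arrays read 8.72, 8.59, 8.55 and 8.35 with TNFα, against 7.74, 7.74, 8.10 and 7.80 without. Its response was 0.14 in SIMPL-/- MEFs (adjusted p = 0.549) and 0.70 in littermate MEFs (adjusted p = 8.11e-05). The difference of −0.57 missed the threshold (adjusted p = 0.0749) and passed with dim genes left out (adjusted p = 0.0278), with trend and robust moderation (adjusted p = 0.0195) and with array weights (adjusted p = 0.034), as well as without array 3, 8 or 10 (−0.65, −0.64 and −0.63). Cx3cr1, the receptor of Cx3cl1 and a gene of monocytes and macrophages, was chosen for mention after its values were seen. Its genotype difference was −1.75 on the log2 scale with TNFα and −1.78 without it, opposite in direction to its ligand.

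Among 5 proteases that release or trim these chemokines, the gelatinase Mmp9 rose in both genotypes, and the other 4 did not pass. Mmp9 rose by 0.58 in SIMPL-/- MEFs (adjusted p = 1.85e-05) and by 0.29 in littermate MEFs (adjusted p = 0.0143). The difference between its responses, 0.29, did not pass (adjusted p = 0.204). The littermate call was lost in a fit of only the groups being compared (adjusted p = 0.0663), with the methods' t-test (0.167) and without array 1, 6 or 7 (0.0634, 0.0501 and 0.0559). Of the NF-κB subunits, 4 were measured and all 4 rose in both genotypes. Rel had responses of 1.58 and 1.68, Relb of 1.11 and 1.28, Nfkb2 of 0.82 and 1.02 and Rela of 0.41 and 0.61 in SIMPL-/- and littermate MEFs, and for none of the 4 did the difference between responses pass (2 had an unadjusted p under 0.05). Of 10 measured genes of the interferon pathway, 4 rose and 2 fell in SIMPL-/- MEFs, and 3 rose and 1 fell in littermate MEFs. The transcription factor Irf1 rose by 2.17 in SIMPL-/- MEFs and by 3.28 in littermate MEFs, a difference of −1.10 (adjusted p = 1.01e-05), and with its probe sets averaged the difference was −0.58. Irf1 is another of the examples the study plots from these arrays. Stat2, a subunit of the interferon-activated factor, fell by 0.50 in SIMPL-/- MEFs and by 0.48 in littermate MEFs (adjusted p = 0.000333 and 0.000321). The single receptor subunit that passed in SIMPL-/- MEFs and not in littermate MEFs, Ifnar2, had responses of 0.40 and 0.17, with no call on their difference (adjusted p = 0.341), and the methods' t-test did not call its SIMPL-/- response (adjusted p = 0.107).

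The genes whose values ran most like each chemokine over the 16 arrays are given as a description, since the arrays share the 4 groups. Cxcl1 was most like Ccl7, a chemokine for monocytes (Pearson's r = 0.982), and Tnfaip3, an inhibitor of NF-κB signalling (r = 0.975). Cxcl2 was most like Irf1 (r = 0.98) and Vcam1, an adhesion molecule for leukocytes (r = 0.98). Cxcl10 was closest to Gem, a small GTP-binding protein (r = 0.99), and Cxcl5 and Cxcl9 to Bach1, a transcriptional repressor (r = 0.979 each). Cxcl12 was closest to Auts2 (r = 0.995), Cxcl16 to Mt2, a metallothionein (r = 0.982), and Cx3cl1 to Stk40, a kinase (r = 0.973). Cxcl14 and Cxcl11 had looser partners, Cacna1h, a calcium channel subunit (r = 0.882), and Rab36 (r = 0.745).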

How the data were processed

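RNA of 16 MEF cultures was measured on Affymetrix Mouse Gene 1.0 ST arrays. The deposited values are on the log2 scale and were made by the authors with RMA in Partek (versions not given in the sources used here), while the methods name another program, Affymetrix Microarray Suite. Hybridization batches are not given in the sources used here, and a batch that followed a group cannot be told apart from it. Groups were read from the sample titles.

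Of 28853 probe sets, 21789 carry exactly 1 gene symbol in the platform annotation, 1621 carry several and were left out, and 5443 carry none. They give 19938 genes, and the brightest probe set stands for the 999 genes with several. Array medians ran from 6.67 to 6.76, and the lowest Pearson's r within a group was 0.9952 across genes, which are not independent replicates. No filter on dim genes was applied. A limma 3.58.1 model in R 4.3.3 with a mean for each of 4 groups (12 residual and 6.19 prior degrees of freedom) gave the contrasts, with two-sided moderated tests, Benjamini-Hochberg adjustment over all genes and 95% intervals. The fit was also run on simulated data with independent noise and a response in littermate arrays alone. These data held no shared embryos and no genotype difference without TNFα, so the run checked the code and not the design.

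All 10 members are named. Of the other lists, at most 5 genes each are named that passed in a TNFα response or in the difference between responses. Irak1bp1, Cx3cr1 and some cell type markers are named beside these. The 10 genes, the lists and the tests were chosen with earlier results of these data known. For each member the genes with the highest r over 16 arrays were ranked. Promoters came from RefSeq (GRCm38.p6). Alternatives were centring, quantile normalization, leaving out genes whose mean was under the median of gene means (7.06) in all groups, averaged probe sets, trend and robust moderation, array weights, fits to only the groups being compared, the methods' unpaired t-test (for the difference between responses, an unmoderated model), other thresholds, and leaving out each array in turn.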

Additional observations from a re-analysis of the deposited data

Results flagged for a closer look

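In 3 of 40 sets of 4 arrays (10 genes in 4 groups), 1 array lay far from the rest by Dixon's ratio, the gap to the nearest array over the whole range, above its 95% critical value for 4 arrays. Chance alone gives about 1 in 20. For Cxcl1 in untreated SIMPL-/- MEFs, array 10 was low at 7.53 beside 7.88 to 7.95 (ratio 0.842). For Cxcl5, array 11 of untreated SIMPL-/- MEFs was high at 7.76 beside 7.63 to 7.65 (ratio 0.905), and array 5 of TNFα treated littermate MEFs was low at 9.71 beside 10.13 to 10.16 (ratio 0.936). The TNFα response itself differed between the genotypes, by the tested difference of SIMPL-/- minus littermate, for Cxcl2 (−1.04), Cxcl10 (−0.615) and Cx3cl1 (−0.346).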

How the results depend on the processing

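The 50 values of the 10 genes (5 contrasts each) were recomputed under 26 alternatives, 16 of which left out an array. Of 1295 comparisons, 1234 kept direction and call, 27 lost a call, 13 gained one and 21 turned sign, and no called value turned sign. The 7 genes with a TNFα rise passed in every alternative in both genotypes, other than a 1.5-fold change with p under 0.001, which Cx3cl1 missed in SIMPL-/- and Cxcl16 in littermate MEFs. Members with a smaller response in SIMPL-/- MEFs numbered 3, but 1 with the unmoderated model, 0 at an adjusted p under 0.01 and 2 to 3 without 1 array. Members higher in SIMPL-/- MEFs without TNFα numbered 1, but 2 (with Cxcl1) with centring, quantile normalization, dim genes left out, trend and robust moderation or array weights, and 1 to 2 without 1 array. With TNFα the number was 1, but 0 at 1.5-fold with p under 0.001. Values near 0 turned sign. With centring, the genotype difference with TNFα was 0.027 for Cxcl1 (−0.087 to 0.0021 without 1 array) and 0.036 for Cxcl11 (−0.083 to 0.018). After quantile normalization, the difference between responses was −0.013 for Cxcl5 (−0.095 to 0.057 without 1 array) and −0.0019 for Cxcl12 (−0.021 to 0.039). The littermate response of Cxcl11 ran from −0.044 to 0.010 without 1 array. The causes were not tested. No paired analysis was possible because the groups share no replicate numbers and untreated arrays are not tied to treated ones in any source. By the methods, treated and untreated arrays may come from the same embryos, and the tests above treat all arrays as independent.

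Over all genes, calls in the SIMPL-/- response and in the difference between responses numbered 623 and 107. They were 1008 and 210 with dim genes left out, where fewer genes were tested, and 400 and 66 without array 14. The difference had 253 calls with trend and robust moderation, 182 with array weights and 184 without array 15, and the split of 19 larger and 88 smaller responses became 39 and 97 after quantile normalization. The SIMPL-/- response had 406 calls with the compared arrays alone and 241 with the t-test, which gave 501 in littermate MEFs (1026 in the main model). At 1.5-fold with p under 0.001 there were 104 and 200 calls in the SIMPL-/- and littermate responses, 66 in their difference, and 1599 and 1380 between genotypes with and without TNFα (7230 and 8151 in the main model). At an adjusted p under 0.01 the responses had 313 and 535 calls and their difference 43.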
